A study of Mus musculus with 2 samples.

Results

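Among 31097 cells deposited from hippocampus of aged mice, 728 were neurons that carried transcripts of a set of 6 transcription regulators, Pou4f2, Barhl1, Barhl2, Tfap2d, Mab21l2 and Ebf3. They are called members here. A member had 2000 or more unique molecular identifiers (UMIs, each one counted molecule), at least 3 UMIs from the 6 factors, and at least 1 factor UMI per 10000 UMIs of the cell. It also had UMIs of 2 or more of the factors, and at least 3 UMIs from Slc17a6, Gad1 and Gad2, the genes of the vesicular glutamate transporter VGLUT2 and of the GABA-synthesizing enzymes. The control library held 107 members and the tomatidine library 621. All of these genes were measured in the cells they chose, so their levels in members are a description.

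The study used C57BL/6 mice of both sexes, and the sex of the pooled mice is not given in the sources used here. From 21 months of age, 4 control mice received a diet without tomatidine and 4 mice a diet with 0.05% tomatidine, a steroidal alkaloid of tomato, for 3 months. Frozen hippocampi of each group were pooled and profiled as 1 fixed-cell library per group with probes for 19059 genes. The control library held 15912 cells and 279525565 UMIs, with a median of 7556.5 UMIs per cell, and the tomatidine library 15185 cells and 259059908 UMIs, with a median of 7891. With 1 library per group there is no replicate, no test between groups was possible, and every interval below is a 95% interval that covers counting error only.

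The 6 factors belong to families that specify neurons in the embryonic brain. Pou4f2 and its relative Pou4f1 are POU-homeodomain factors known from retinal ganglion and midbrain neurons, Barhl1 and Barhl2 are BarH-like homeobox factors of diencephalon, midbrain and hindbrain, and Tfap2d is the AP-2 factor of the midbrain roof. Mab21l2 is a regulator of eye and midbrain development, and Ebf3 is a helix-loop-helix factor of early neuronal differentiation. Most excitatory neurons of thalamus, midbrain and hindbrain use VGLUT2, whereas pyramidal and granule neurons of the hippocampus mainly use VGLUT1, encoded by Slc17a7. In GRCm38 with GENCODE vM21 annotation, the genes lie at chr8:78433010-78436645 (Pou4f2, minus strand), chr2:28907679-28916668 (Barhl1, minus), chr5:106452523-106458166 (Barhl2, minus), chr1:19103022-19166346 (Tfap2d, plus), chr3:86545581-86548629 (Mab21l2, minus) and chr7:137193673-137314445 (Ebf3, minus). Mab21l2 lies within the span of another gene, Lrba.

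Members made up 0.766% of the control cells with 2000 or more UMIs (107 of 13974, 0.628 to 0.925%) and 4.63% of the tomatidine cells (621 of 13406, 4.28 to 5.002%). Tomatidine thus exceeded control by 3.87 points, with a Newcombe interval of 3.49 to 4.26, and the shares had a ratio of 6.05. Other neurons, sorted by fixed gene gates without the members, had ratios of 0.871 to 1.40 between the libraries. Slc17a7-type neurons were 27.0% of control and 24.97% of tomatidine cells. Non-members with 3 or more UMIs of both Slc17a6 and Tcf7l2, a factor abundant in adult thalamus and called thalamic-type below, were 4.17% and 3.63%. Other Slc17a6 neurons were 5.20% and 6.66%, and interneuron-type cells were 2.15% and 3.01%. The higher share of members in the tomatidine library was also found on both sides of the Tcf7l2 gate. Members with 3 or more Tcf7l2 UMIs numbered 72 in control and 348 in tomatidine, a difference of 2.08 points (1.79 to 2.38), and those below it numbered 35 and 273, a difference of 1.79 points (1.54 to 2.05).

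**Figure D1:**
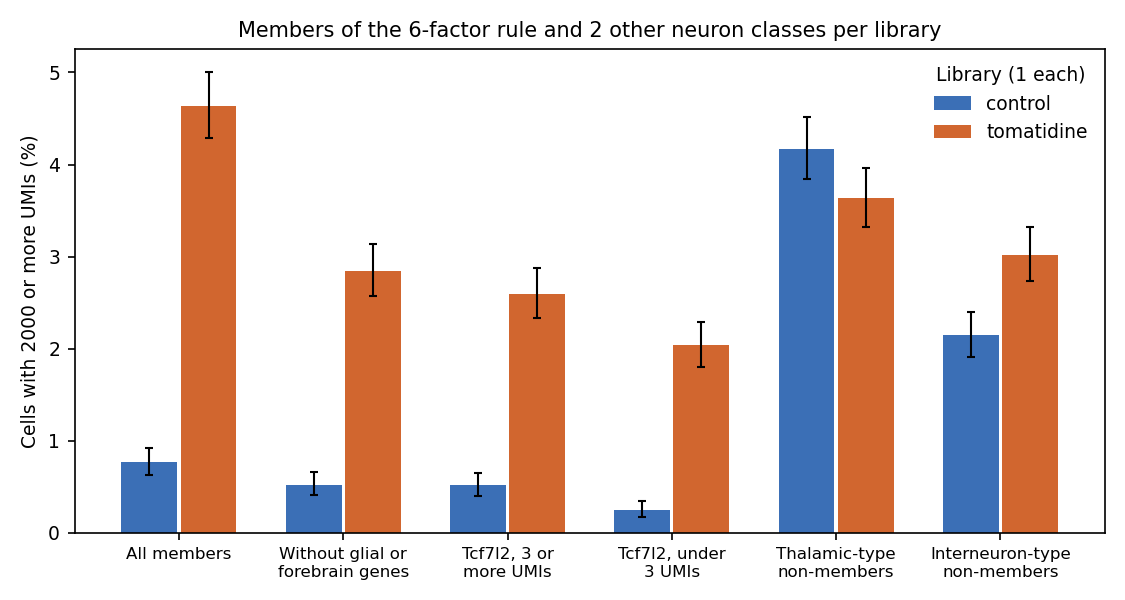
Share of cells with 2000 or more UMIs (y axis, percent) in the control and tomatidine libraries for all members, members without glial or forebrain genes, members on both sides of the Tcf7l2 gate, and thalamic-type and interneuron-type non-members. Bars are 1 library each and error bars are exact 95% counting intervals. All members reached 0.766% in control and 4.63% in tomatidine, whereas thalamic-type non-members reached 4.17% and 3.63%.

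Whether the members came from brain regions next to the hippocampus, and entered the pooled tissue in unequal amounts, was not tested, and with 1 library per group such a difference cannot be told apart from the treatment. The labels name hippocampus as the only tissue. A list of 12 hippocampal neuron genes summed to 593 CPM (UMIs of a gene scaled to a total of 1000000) in control members and 434 CPM in tomatidine members, against 1728 and 1525 CPM in the Slc17a7-type neurons of the same libraries. C1ql2 alone made 203 CPM of the sum in control members, and the leading gene in tomatidine members made 91.8 CPM. The 6 general neuron genes, led by the synaptic gene Snap25, summed to 5761 and 5778 CPM in members, against 6206 and 5893 CPM in Slc17a7-type neurons. Members were deep cells. Their UMIs ranged from 4898 to 197426 in control with a median of 33350, and from 2558 to 272812 in tomatidine with a median of 30220. Mitochondrial transcripts were a median 0.537% and 0.468% of the UMIs. The libraries shared 292 cell barcodes, and no barcode belonged to a member in both.

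The rule was not equally close to its limits in the 2 libraries. Exactly 3 factor UMIs were found in 5 control and 68 tomatidine members, and 5 and 43 further cells met every other condition with 2 factor UMIs. The lowest factor density of a member was 1.05 per 10000 in control and 1.0002 in tomatidine, and the highest density among the cells left out for it was 0.998 and 0.988. The median member had 11 factor UMIs in both libraries. Of the control members, 55 had 2 factors, 34 had 3 and 18 had 4 or more. Of the tomatidine members, 193 had 2, 197 had 3 and 231 had 4 or more. Pou4f2, Barhl1 or Tfap2d was found in 80 of 107 control members (74.8%) and 524 of 621 tomatidine members (84.4%), and the remaining 27 and 97 were kept through Barhl2, Mab21l2 and Ebf3.

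Pou4f2 differed most between the libraries among the 6 factors. It had 30 UMIs in 14 control members (13.1%) and 1728 UMIs in 278 tomatidine members (44.8%). Its level was 7.27 CPM in control and 71.4 CPM in tomatidine members, a log2 ratio of 3.30 (2.78 to 3.87), and no control member had more than 5 UMIs, against up to 63 in tomatidine. Members held 51.7% of all Pou4f2 UMIs in control cells above the UMI minimum and 90.3% of those in tomatidine cells. Pou4f2 was at 0 UMIs in 784 control oligodendrocyte-type cells. At 3 counts of the total this allows a share of up to 0.383%, and the exact interval used for other shares allows 0.469%. In tomatidine it was found in 4 of 630 such cells (0.635%). The median depths of these cells were 5038.5 and 4605.5 UMIs. Oligodendrocytes should lack this factor. At the depth of the members, 33350 and 30220 UMIs, a stray UMI is more likely than in these shallower cells, so their shares can understate the background.

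The BarH-like factors were also higher in tomatidine members. Over all members, Barhl1 stood at 19.4 CPM in control and 39.8 CPM in tomatidine, with UMIs in 22 and 233 cells and a log2 ratio of 1.04 (0.71 to 1.38). Barhl2 stood at 18.2 and 40.8 CPM, with UMIs in 40 and 296 cells and a log2 ratio of 1.17 (0.83 to 1.53). Per member, the other factors were similar or lower. Tfap2d was 45.5 CPM in control (UMIs in 57 members) and 29.5 CPM in tomatidine (UMIs in 282 members), a log2 ratio of -0.63 (-0.86 to -0.39). Ebf3 was 143 and 114 CPM (86 and 457 members), with a log2 ratio of -0.32. The 12 control members with 3 or more UMIs of Eomes, a T-box transcription factor gene, held 27.5% of its control UMIs, and without such cells Ebf3 was 113 and 114 CPM. Mab21l2 was 80.2 and 84.8 CPM (67 and 438 members), with a log2 ratio of 0.08 (-0.09 to 0.25). Over all cells with 2000 or more UMIs, where the number of members counts too, every factor was higher in the tomatidine library, from a log2 ratio of 1.82 for Ebf3 to 5.15 for Pou4f2.

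**Figure D2:**
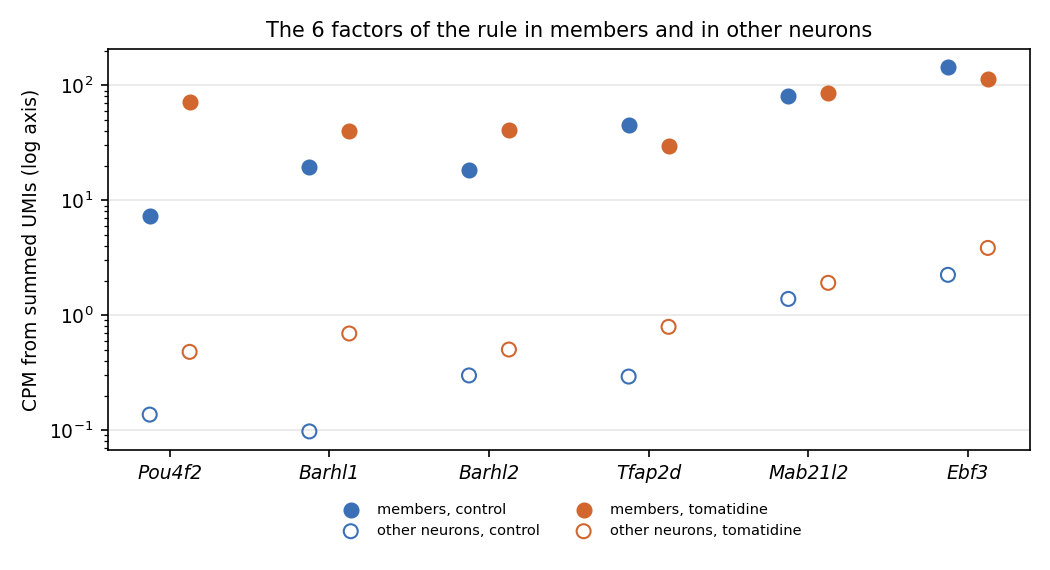
Level of each of the 6 factors (y axis, CPM from summed UMIs, log axis) in members (filled circles) and in the other neurons of the 4 gates together (open circles), 1 point per library. Pou4f2 was 7.27 CPM in control and 71.4 CPM in tomatidine members, whereas Mab21l2 was 80.2 and 84.8 CPM. The distance between filled and open circles is set by the rule.

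The factors were not spread evenly over the same cells. In tomatidine members with Barhl1, Tfap2d was found in 58 of 233 (24.9%), against 57.7% of the members without Barhl1. In control the same shares were 3 of 22 (13.6%) and 63.5%. Pou4f2 was found together with Barhl2 in 157 of 278 tomatidine members with Pou4f2 (56.5%), against 40.5% of those without it. Mab21l2 went with Barhl1 in opposite directions. In control it was found in 20 of 22 members with Barhl1 (90.9%) and 55.3% of those without, and in tomatidine in 148 of 233 (63.5%) and 74.7%. These overlaps are bounded by the rule, which asked for 2 factors in every cell, and they depend on depth.

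Each member was then grouped by the factor with most UMIs, as a label only, since probes can capture genes unequally. Ebf3 led in 51 control members (47.7%) and 205 tomatidine members (33.0%), and Mab21l2 in 23 (21.5%) and 131 (21.1%). Pou4f2 led in 1 control member (0.935%, interval 0.0237 to 5.10%) and in 95 tomatidine members (15.3%). Barhl1 led in 3 and 56 members, Barhl2 in 3 and 42, and Tfap2d in 13 and 35, and 13 and 57 were tied. By this label, the make-up of the members differed between the libraries as well as their number. The label rests on factors that also chose the cells, and without replicate libraries the difference was not tested. Tcf7l2 was most abundant in the Tfap2d-led members, at 1400 CPM in control and 1141 CPM in tomatidine. Among tomatidine members, Pou4f1 was highest in the Barhl2-led cells (133 CPM), where Meis2, a homeobox cofactor, was also highest (273 CPM).

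**Figure D3:**
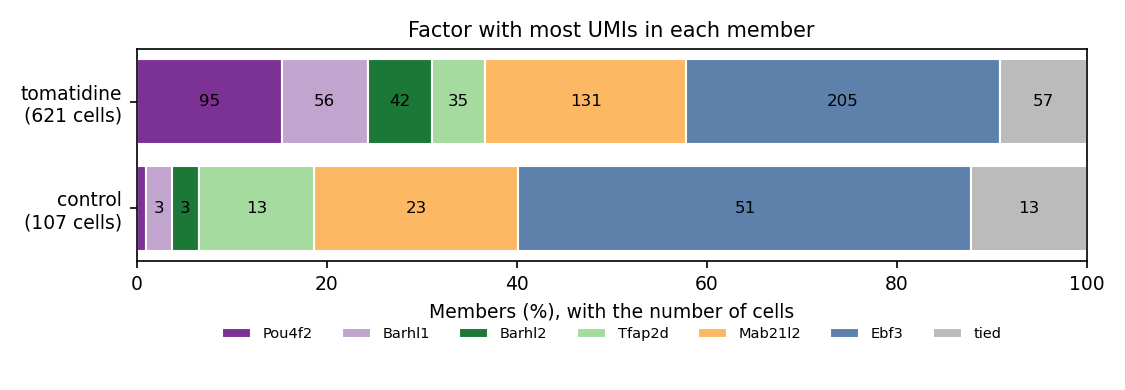
Members of each library (x axis, percent) by the factor with most UMIs, with the number of cells in each segment. Pou4f2-led members were 1 of 107 in control and 95 of 621 in tomatidine, and Ebf3-led members were 51 and 205.

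Most members were excitatory by their transmitter genes. A cell was called Slc17a6-type or Gad-type where that side held 80% or more of its Slc17a6, Gad1 and Gad2 UMIs. Slc17a6-type cells were 98 of 107 control members (91.6%, 84.6 to 96.1%) and 502 of 621 tomatidine members (80.8%, 77.5 to 83.9%). Gad-type cells were 3 (2.80%) and 39 (6.28%), and mixed cells 6 (5.61%) and 80 (12.9%). Slc17a6 itself stood at 919 CPM in control and 799 CPM in tomatidine members, and Gad1 at 59.1 and 148 CPM. In tomatidine, 16 of the Gad-type cells were led by Mab21l2 and 15 by Ebf3. The vesicular GABA transporter gene Slc32a1, which the rule did not use, was 35.8 CPM in control and 78.0 CPM in tomatidine members (log2 ratio 1.12, 0.88 to 1.37). A single control member held 53.4% of the control UMIs, and in unmarked members Slc32a1 was 5.96 and 92.4 CPM, a log2 ratio of 3.96 (3.27 to 4.74). That ratio rests on 17 UMIs in 8 control members and 1349 UMIs in 89 tomatidine members.

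Markers of other cells were carried by some members. The summed glial and vascular genes reached 40 or more per 10000 UMIs in 25 control members (23.4%) and 203 tomatidine members (32.7%). The 6 oligodendrocyte genes summed to 2302 CPM in control and 2817 CPM in tomatidine members, against 53547 and 50057 CPM in oligodendrocyte-type cells. The 6 astrocyte genes summed to 1656 and 1572 CPM, led by Aldoc, and the 5 microglia genes with probes to 78.2 and 110.0 CPM. The 5 endothelial genes with probes summed to 208 and 72.8 CPM, led by Itm2a, and the 6 choroid plexus genes to 985 and 241 CPM, led by Ttr in control and Enpp2 in tomatidine. None of these listed genes was at 0 in the members of either library. Listed forebrain genes, Neurod2 and Neurod6 among them, together reached 2 per 10000 in 11 control (10.3%) and 61 tomatidine members (9.82%), against 92.0% and 92.4% of Slc17a7-type neurons. Among thalamic-type neurons outside the members 86 of 583 in control (14.8%) and 72 of 487 in tomatidine (14.8%) reached it. Without all such cells, 73 control and 381 tomatidine members remained, and the share difference was 2.32 points (2.02 to 2.63). Of these unmarked members 98.6% and 85.6% were Slc17a6-type, and their oligodendrocyte genes summed to 394 and 428 CPM. Their astrocyte genes summed to 935 and 1197 CPM, of which Aldoc made 689 and 948 CPM. Thalamic-type non-members had 514 and 628 CPM of Aldoc. Scrublet's own threshold called 0 doublets in either library, so it gave no usable call. Among its highest 2% of scores were 1 control and 10 tomatidine members.

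Beyond the rule, several listed transcription factors of midbrain, diencephalon and hindbrain were higher in members than in other gated neurons. The counted factors of the telencephalon were lower. Members were compared with all other gated neurons within each library, and a gene was counted where its log2 ratio was 1 or more in size, in the same direction in both. Of 11533 genes with 100 or more UMIs in members, 507 (4.4%) were higher and 507 (4.4%) were lower. Of 52 listed midbrain, diencephalon and hindbrain factors, 31 reached 100 UMIs, and of these 15 were higher and 1, Nr4a2, was lower. Their median log2 ratio was 2.11 in control, over the 30 with a control value, and 1.71 in tomatidine, against 0.09 and 0.05 for all genes counted. Hoxb3 and Hoxa5, which mark hindbrain or spinal neurons, had 0 UMIs in members of either library. The cells were chosen by genes measured in the same cells, so these ratios are a description and no test was made.

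The AP-2 factor Tfap2b stood at 65.6 CPM in control and 76.3 CPM in tomatidine members, and at 0.774 and 3.32 CPM in other neurons, log2 ratios of 6.41 and 4.52. Foxb1, a forkhead factor of the mammillary region, stood at 16.7 and 11.7 CPM against 0.299 and 0.381 CPM (5.80 and 4.93). Ebf2 and Ebf1, relatives of Ebf3, had log2 ratios of 6.13 and 3.92, and of 4.61 and 3.32. Mab21l1, the paralog of Mab21l2, had ratios of 4.01 and 3.18. Whether the probes separate this pair was not tested. The Iroquois factors Irx1, Irx2, Irx3, Irx5 and Irx6 were all among the 15 higher factors, with Irx3 at 17.9 and 13.2 CPM against 1.59 and 2.28 CPM. Lhx9, a LIM factor of dorsal thalamus and midbrain, stood at 91.3 and 110.0 CPM against 30.4 and 23.8 CPM. Tfap2a, another AP-2 factor, and Bnc2, a zinc finger factor, were among the 15 genes with the highest ratios to other neurons, at 9.93 and 11.03 CPM and at 14.3 and 54.0 CPM. Pou4f1 was 54.1 CPM in tomatidine members (log2 ratio 4.04) and 15.02 CPM in control members (1.15).

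**Figure D4:**
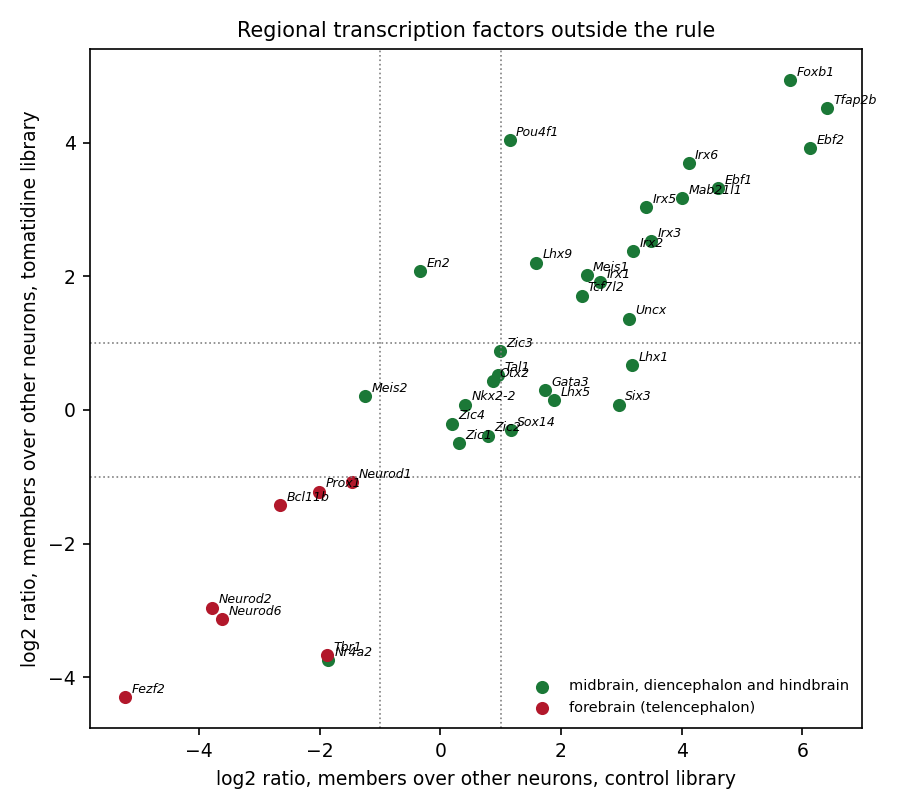
Log2 ratio of CPM, members over the other neurons, in the control library (x axis) and the tomatidine library (y axis) for listed factors with 100 or more UMIs in members, rule genes left out. Each point is a gene, and dotted lines mark a log2 ratio of 1 in size. Factors of midbrain, diencephalon and hindbrain reach 6.41 in control (Tfap2b), and every telencephalic factor drawn lies below -1 on both axes.

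Telencephalic factors were lower in the members than in all other gated neurons together, most of which were Slc17a7-type. All 9 of the listed forebrain factors with 100 UMIs were lower than in other neurons, with a median log2 ratio of -3.62 in control and -3.13 in tomatidine. Of all genes counted, 4.4% were lower, and their medians were 0.09 and 0.05. Fezf2, a factor of cortical projection neurons, had log2 ratios of -5.22 and -4.29. Thalamic-type neurons were also low in several of these factors. Against them Bcl11b had log2 ratios of -0.28 and 0.29 (31.0 and 37.6 CPM in control, 64.8 and 52.9 CPM in tomatidine), and Neurod6 of -0.49 and -0.39. The 10 lowest genes held Prkcd, Ankrd33b, Crym, Ccn3, Kcnj4 and Rgs14, a signalling regulator of CA2 neurons, with log2 ratios of -4.27 and -3.27 for Rgs14 and -4.82 and -3.31 for Crym. Slc17a7 stood at 187 and 137 CPM against 1782 and 1651 CPM (-3.25 and -3.59). Of the 10 hippocampal neuron genes with 100 UMIs, 6 were lower, among them the granule cell factor Prox1 (-2.01 and -1.22) and Wfs1, a gene of CA1 pyramidal cells (-1.34 and -1.51).

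The members overlapped the thalamic-type gate without matching it. Of 107 control members 71 (66.4%) had 3 or more UMIs of both Tcf7l2 and Slc17a6, and of 621 tomatidine members 334 (53.8%). They were 10.9% of all control cells with that gate and 40.7% of all such tomatidine cells. Tcf7l2 stood at 712 CPM in control and 411 CPM in tomatidine members, against 738 and 798 CPM in the thalamic-type non-members. Prkcd, a protein kinase C gene abundant in thalamic relay neurons, stood at 13.3 and 6.36 CPM in members and was lower than in thalamic-type cells by log2 ratios of -6.83 and -7.13.

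Some genes of glycine receptors and of fast firing were higher in the members, beside 4.4% of all genes higher and 4.4% lower. Glra1, the adult glycine receptor subunit, stood at 55.9 CPM in control and 68.8 CPM in tomatidine members, against 3.72 and 6.46 CPM in other neurons (log2 ratios 3.91 and 3.41). Glra2 and Glra3 were also past the fold, as was the NMDA receptor subunit Grin2d. In the same list of 21 fast receptor subunits, Gria1, Grin2a, Grin2b, Gabra4 and Gabrd were lower, and the remaining 12 did not reach the fold in both libraries. Of 16 sodium and potassium channel genes, 4 were higher, Scn1a, Scn4b, Kcnc1 and Kcnab3, and the other 12 did not reach the fold in both libraries. Scn4b, the sodium channel subunit of resurgent current, stood at 401 and 388 CPM against 77.9 and 82.8 CPM. Among 6 neurofilament and axon genes, Nefm, Nefh and Sncg were higher, with Nefm at 777 and 723 CPM against 277 and 281 CPM.

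The 15 genes with the highest ratios to other neurons held Tacr1 and Npffr2. Tacr1, the receptor of substance P, stood at 59.6 and 52.6 CPM against 5.32 and 5.50 CPM (log2 ratios 3.49 and 3.26). Npffr2, a neuropeptide FF receptor, was higher by 3.68 and 3.75 from 10 and 107 UMIs, and the 10 control UMIs lay in 2 members. Lbhd2, Zan, Dgkk, Ankfn1 and Glra4 completed these 15 genes, with the 6 control UMIs of Glra4 in 1 cell. The calcium-binding protein genes Calb2 (976 and 549 CPM against 141 and 136 CPM) and Pvalb (522 and 318 CPM against 141 and 158 CPM) were higher, whereas Calb1 did not reach the fold in both. Cbln2, a synapse organizer of the cerebellin family, had log2 ratios of 2.42 and 1.94. Of 7 transmitter genes with 100 UMIs outside the rule, Ddc, which makes monoamines, was higher and Slc17a7 lower, beside 4.4% of all genes in each direction. None of 4 nicotinic receptor subunits reached the fold in both libraries.

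Immediate early genes, which neuronal activity induces, were lower in the members than in all other gated neurons together. Of 12 listed, 10 were lower than in other neurons, with medians of -1.58 in control and -1.85 in tomatidine. Egr3 had log2 ratios of -3.17 and -2.84, Nr4a1 -2.62 and -2.27, and Arc, a synaptic activity gene, -2.51 and -2.33. Not every class of neuron stood above the members. Arc was 28.8 CPM in control members against 25.8 CPM in thalamic-type and 17.5 CPM in interneuron-type neurons, and 23.8 CPM in tomatidine members against 39.4 and 13.2 CPM. Of all genes counted, 4.4% were lower. In the list of senescence and p53 target genes, Phlda3 was higher (103 and 124 CPM against 23.9 and 32.4 CPM), and Cdkn1a, the p21 gene, was lower (4.12 and 4.26 CPM against 10.1 and 9.71 CPM), as was Btg2. Btg2 was 12.8 and 9.59 CPM in members and 43.8 and 44.5 CPM in Slc17a7-type neurons. In thalamic-type neurons it was 14.2 and 13.5 CPM, and in interneuron-type neurons 9.90 and 10.4 CPM. The other 8 of the 11 genes with 100 UMIs did not reach the fold. No gene of 14 in the ATF4 and integrated stress response list or of 12 in the mitophagy list did so, nor any heat shock gene of 8 other than Hspa1b, which was lower.

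Tomatidine members were next compared with control members. Of the 11533 genes, 141 (1.22%) had a log2 ratio of 1 or more and 133 (1.15%) of -1 or less, and the median of all was 0.01. Among unmarked members the counts were 149 (1.39%) and 69 (0.643%) of 10726 genes. Since the leading factors and transmitter classes differed between the libraries, these values describe which cells were in each pool together with levels per cell, which cannot be told apart here.

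Several neuropeptide genes were higher in the tomatidine members. Of 15 with 100 UMIs, 7 were past the fold upward, beside 1.22% of all genes counted, and 1, Npy, was past it downward, with a median log2 ratio of 0.71 beside 0.01 for all genes. In unmarked members 9 of 15 were past the fold upward and 0 downward, with a median of 1.38. Npy then stood at 10.9 and 8.97 CPM (-0.28, -0.85 to 0.34), and 1 cell held 41.1% of its UMIs in all control members. Tac1, which encodes substance P, had 140 UMIs in 15 control members and 4547 UMIs in 219 tomatidine members, which is 33.9 and 188 CPM and a log2 ratio of 2.47 (2.23 to 2.72). Tac2, the neurokinin B gene, had 1 UMI in control and 289 UMIs in 24 tomatidine members (log2 ratio 5.62, 3.13 to 10.9). Cartpt, which encodes the CART peptide, had 46 UMIs in 10 members and 1685 UMIs in 136 members, 11.1 and 69.6 CPM (2.64, 2.22 to 3.10). Adcyap1, the PACAP gene, was 48.7 and 98.0 CPM in 37 and 311 members (1.01). That lies at the limit of the fold, which it does not reach once ratios are centred on the median gene. Nts, the neurotensin gene, had a ratio of 1.32. Penk, the enkephalin gene, had a ratio of 1.06, with 51.4% of its control UMIs in 1 cell, and a ratio of 1.91 in unmarked members (53.3 and 199.5 CPM). A single tomatidine cell held 64.6% of the Vip UMIs. The ratios of Tac1 and Cartpt depended on which members were compared. In splits chosen after seeing the data, Tac1 was 3.25 in members with 3 or more Tcf7l2 UMIs and 0.65 in those with fewer, where it did not reach the fold, and Cartpt was 0.65 in Ebf3-led members.

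Other genes at the upper end were carried by many tomatidine members. Nxph4, a neurexophilin, had 18 UMIs in 9 control and 1448 UMIs in 211 tomatidine members (4.36 and 59.8 CPM, log2 ratio 3.78, 3.11 to 4.54). Gli3, a transcription factor of hedgehog signalling, had 5 UMIs in 5 members and 215 in 102 (2.88), and En2, a midbrain and hindbrain homeobox factor, 2 UMIs and 104 UMIs (3.15, 1.26 to 6.21). Myoc (3.11) and Gpc4 (2.62) were also among the 10 highest, with 5 or fewer control UMIs each. A single tomatidine cell held 75.9% of the Myoc UMIs. In unmarked members its ratio was -0.45 (-2.10 to 1.60), from 4 and 15 UMIs.

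**Figure D5:**
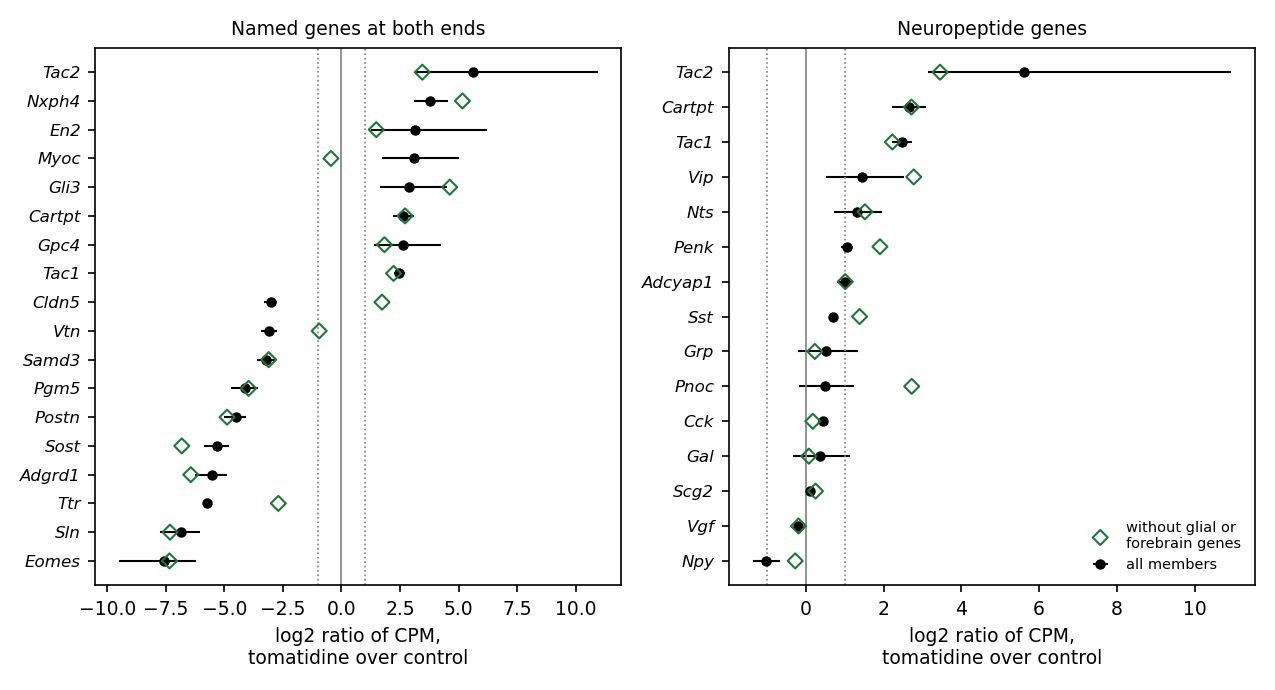
Log2 ratio of CPM, tomatidine over control members (x axis), for named genes among the 10 highest and 10 lowest (left) and the neuropeptide genes with 100 or more UMIs (right). Black points with 95% counting intervals are all members, green diamonds are members without glial or forebrain genes, and dotted lines mark a log2 ratio of 1 in size. Tac2 lies highest at 5.62 and Eomes lies lowest at -7.58. The diamonds of Myoc and Cldn5 have the opposite sign, but their intervals, not drawn, include 0 (-2.10 to 1.60 and -0.94 to 7.12). The diamonds of Tac2, En2 and Eomes rest on the floor of 3 counts for a library at 0 UMIs.

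The regional factors did not move in 1 direction. Of 31 with 100 UMIs, 4 were past the fold upward, Pou4f1, Meis2 and En2 among them, and 7 downward. In unmarked members 22 kept 100 UMIs, and 5 were past the fold upward and 5 downward, beside 1.39% and 0.643% of all genes there. En2 had 0 and 43 UMIs in unmarked members and was not counted among them. Pou4f1 was 15.02 CPM in control and 54.1 CPM in tomatidine members (log2 ratio 1.85, 1.48 to 2.24), and Meis2 was 27.6 and 103 CPM (1.90). Downward were Zic1 (136 and 46.0 CPM, -1.57), Zic2, Zic4, Ebf2, Lhx1, Six3 and Nr4a2. The 12 control members with 3 or more Eomes UMIs held 42.9% of the control Lhx1 UMIs. Lhx1 stood at 6.32 and 3.64 CPM in the other members, and at 5.96 and 3.70 CPM in unmarked members (-0.69, -1.50 to 0.19), where it did not reach the fold. Cbln1, a cerebellin, was 151 CPM in control and 42.5 CPM in tomatidine members (-1.83). Backgrounds over all members were 1.22% upward and 1.15% downward.

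At the lower end, 7 of the 10 genes lay mostly in 12 control members with 3 or more Eomes UMIs, a gate chosen after the values were seen. Eomes is a T-box factor known from glutamatergic neurons of cortex, olfactory bulb and cerebellum. It had 131 UMIs in 13 control members and 4 UMIs in 1 tomatidine member, a log2 ratio of -7.58 (-9.48 to -6.19). All 12 cells were led by Ebf3, 11 were Slc17a6-type and 9 were unmarked. They held 93.3% of the control members' UMIs of Sln, 90.8% of Adgrd1, 89.9% of Postn, 84.6% of Sost, 78.1% of Pgm5 and 77.4% of Samd3, all among the 10 lowest genes. They had 5133 CPM of Calb2, against 615 CPM in the other control members. Barhl2 was found in all 12, at 54.6 CPM, and Pou4f2, Barhl1 and Tfap2d were at 0. Tcf7l2 stood at 30.3 CPM against 771 CPM in the other control members, and Tbr1, another T-box factor, at 167 against 4.74 CPM. In the tomatidine library, 1 of 621 members passed the gate. Without these cells, 100 genes were past the fold downward in place of 133. Apart from Eomes, which defined the gate, the 10 lowest all kept a log2 ratio past -1, but most were smaller in size. Sln was then -3.44, Adgrd1 -3.50, Sost -3.88, Pgm5 -2.11, Postn -1.53, Samd3 -1.30 and Ttr -2.76. Eomes had 2 control UMIs left by its own gate and 0 in the other tomatidine members. Its value of -2.08 rests on the floor of 3 counts and is not a measured ratio.

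The 3 other genes at the lower end were markers of choroid plexus and vessels. Ttr, which encodes transthyretin, had 2841 UMIs in control and 312 UMIs in tomatidine members (688 and 12.9 CPM, log2 ratio -5.74), and 1 control cell held 87.6% of the former. It was found in 98 control and 180 tomatidine members. Among unmarked members Ttr was 78.9 and 12.2 CPM (-2.69), and over all cells with 2000 or more UMIs it was 3201 and 463 CPM. The part of free RNA in this value was not tested. Vtn, the vitronectin gene, was at -3.09, with 82.8% of its control UMIs in 1 cell. Cldn5, the endothelial claudin, was at -3.02 with its control UMIs in 4 cells. In unmarked members it was at 1.73 (-0.94 to 7.12), from 1 and 17 UMIs. Of 5 endothelial genes, 4 were past the fold downward in all members, beside 1.15% of all genes counted. In unmarked members 1 of the 5, Itm2a, kept 100 or more UMIs, and it stayed within the fold.

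Among the 381 unmarked tomatidine members, the cells led by each factor were compared with the rest. The genes given were taken, after their values were seen, from the 8 with the largest ratio to the other unmarked members. Any split of the cells would give such genes, so they are a description only. In the 55 Pou4f2-led cells, Cartpt was 287 CPM against 54.4 CPM, from 20 cells, and Nptx2, a neuronal pentraxin, was 149 against 57.0 CPM, from 37 cells. In the 38 Barhl1-led cells, Nos1, the neuronal nitric oxide synthase, was 141 against 40.4 CPM, from 23 cells, with 32.6% of its UMIs in 1 cell. The bZIP factor Maf was 197 against 58.2 CPM, from 16 cells. In the 22 Barhl2-led cells, Npnt, an extracellular matrix protein, was 337 against 32.4 CPM, from 16 cells, with 26.4% of its UMIs in 1 cell. Gda, guanine deaminase, was 483 against 54.5 CPM, from 17 cells. In control no unmarked member was led by Pou4f2.

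The Tfap2d-led and Mab21l2-led groups could be set beside control cells. In 18 unmarked tomatidine Tfap2d-led cells, Cck, the cholecystokinin gene, was 837 CPM against 132 CPM in the others, and in 10 control Tfap2d-led cells it was 387 against 107 CPM. Syndig1l, a synapse differentiation gene, was 108 against 15.1 CPM in tomatidine and 73.7 against 16.2 CPM in control. Coch, the cochlin gene, was 122 against 5.01 CPM in tomatidine, from 5 of the 18 cells. In control it was 42.1 against 18.2 CPM, from 16 UMIs in the Tfap2d-led cells. Zbtb7c, a zinc finger protein gene, was 93.7 against 9.67 CPM in tomatidine but 5.26 against 23.4 CPM in control. Nxph4 was 378 CPM in the tomatidine Tfap2d-led cells and at 0 UMIs in the control ones. In 79 tomatidine Mab21l2-led cells, Cbln1 was 113 against 24.4 CPM, and in 16 control cells 340 against 101 CPM. Zic2 was 44.6 against 9.69 CPM in tomatidine and 84.1 against 53.3 CPM in control. Slc32a1 was 244 against 41.7 CPM in the tomatidine Mab21l2-led cells, with 34.8% of its UMIs in 1 cell, and at 0 UMIs in the control ones. In 127 tomatidine Ebf3-led cells, C1ql2, a complement-like synaptic protein gene, was 123 against 26.8 CPM, whereas in 35 control cells it was 148 against 245 CPM.

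Lists of senescence, stress response and mitophagy genes were compared between the members of the libraries, beside 1.22% of all genes past the fold upward and 1.15% downward. None of 11 senescence and p53 target genes, 12 mitophagy genes or 8 heat shock genes reached a log2 ratio of 1 in size, with medians of 0.05, -0.06 and 0.00. Among unmarked members none of the 10, 12 and 6 genes of these lists that kept 100 UMIs did so. Of 14 ATF4 and integrated stress response genes, 1 was past the fold, Slc7a11, the cystine transporter, which was lower in tomatidine members (14.5 and 6.65 CPM, -1.13, -1.56 to -0.67). Cdkn1a stood at 4.12 CPM in control and 4.26 CPM in tomatidine members from 17 and 103 UMIs, and its interval ran from -0.70 to 0.88. A single control cell held 35.3% of the 17 UMIs. Without marked members Cdkn1a had 2 and 51 UMIs, 0.701 and 3.49 CPM, and a log2 ratio of 2.32 (0.39 to 5.401), below the 100 UMIs asked of a counted gene. Of 12 immediate early genes, Fosb was past the fold upward from 7 and 97 UMIs (1.24, 0.14 to 2.59).

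Y-linked transcripts were found in nearly all members. They stood at 210 CPM in control and 202 CPM in tomatidine members, against 173 to 206 CPM in the other neuron gates. At least 1 Y-linked UMI was found in 106 of 107 control members (99.1%) and 600 of 621 tomatidine members (96.6%). Thinned to 2000 UMIs per cell, the shares were 35.6% and 34.9%. Of the members with 10000 or more UMIs, 1 of 102 in control (0.980%) and 13 of 569 in tomatidine (2.28%) had under 0.5 Y-linked UMIs per 10000, and 91.2% and 88.8% had 1 or more.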

How the data were processed

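Single-cell suspensions were prepared from frozen hippocampus, fixed and hybridized to probe pairs (Chromium Fixed RNA Profiling), and sequenced on an Element AVITI instrument. The authors deposited 1 filtered matrix of UMI counts per library. The submitters' processing notes name Cell Ranger 8.0.0 and build mm10, whereas the matrix header names Cell Ranger 7.1.0. The study's methods describe filters of at least 250 genes, 0.8 log10 genes per UMI and 20% mitochondrial UMIs, and in another passage removal of cells with over 6000 genes, of cells with over 10 to 15% mitochondrial transcripts and, separately, of doublets called by DoubletFinder, which was not run here. The deposited counts were used without these, except as an alternative.

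Members and gene lists were chosen with earlier results of these data known. Deposited counts were summed over the members and the 4 neuron gates of each library. The gates were Slc17a7-type (5 or more Slc17a7 UMIs, under 3 from Slc17a6, Gad1 and Gad2), thalamic-type (3 or more of Slc17a6 and of Tcf7l2), other Slc17a6 neurons (3 or more Slc17a6, under 3 Tcf7l2), and interneuron-type (5 or more from Gad1 and Gad2, under 3 from Slc17a6 and Slc17a7, 2 or more from Lhx6 and Adarb2). Ratios of CPM carry exact conditional binomial intervals, shares Clopper-Pearson intervals and share differences Newcombe intervals, all at 95%. They cover counting error only, since mice of a group were pooled and no variation among mice was measured. The ratio intervals also treat UMIs as independent, so they leave out the uneven spread of a gene over cells. A gene was counted past the fold at a log2 ratio of 1 in size with 100 or more UMIs in members. A group at 0 UMIs was set at a floor of 3 counts over the group.

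Named were the 9 genes of the rule, members of the lists, the 15 highest and 10 lowest genes against other neurons, ranked by the smaller of the 2 library ratios, and the 10 highest and 10 lowest between libraries. Doublets were scored with Scrublet and not removed. Alternatives changed the UMI, factor, density and gene limits, the summing, the centring, the reference and the depth. Leaving out marked members, the Tcf7l2 and Eomes splits and the Ebf3-led members were added after seeing the data. Computations used Python 3.11.15, numpy 2.4.6, pandas 2.3.3, scipy 1.17.1 and scanpy 1.11.5. The count ratios were also run on simulated independent counts, which leave out the uneven spread of UMIs over cells. That run checks the calculation and cannot show how the intervals hold for these data. Some of the genes that the lists and ranks hold are not reported here, and the counts include them.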

Additional observations from a re-analysis of the deposited data

How the results depend on the processing

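No paired analysis was possible because each group is 1 pooled library. The share of members was higher in tomatidine under every alternative run. The difference of 3.87 points became 5.19 with a 5000 UMI minimum, 3.18 with 5 factor UMIs, 2.82 with 3 factors, 1.42 with at most 6000 genes per cell (16 and 150 members), 2.32 without marked members and 1.34 when cells were thinned to 5000 UMIs. Slc17a6-type members were 91.6% in control, and 100% with at most 6000 genes, 98.6% without marked members and 83.2% with 90% of transmitter UMIs required. In tomatidine they were 80.8%, and 71.3%, 85.6% and 73.4% under the same settings, 84.6% with 5 factor UMIs and 84.8% with 3 factors. Members against other neurons gave 357 to 653 genes higher and 352 to 741 lower, all within 1.5 times of 507. In tomatidine, all 15 upper and 10 lower named genes stayed past the fold under the 7 alternatives, but their ratios changed in size. With Slc17a6 neurons only as reference, the tomatidine log2 ratio of Rgs14 went from -3.27 to -1.98, and that of Prkcd from -4.35 to -5.62. Tomatidine against control was less stable. In place of 141 and 133 genes, a minimum of 20 UMIs gave 414 and 373, and Gad-type members alone, 3 and 39 cells, gave 319 and 83. Members under 3 Tcf7l2 UMIs gave 311 higher, those at 3 or more gave 81 lower, and unmarked members gave 69 lower. Among Gad-type members Nxph4 was -2.29 and En2 -0.49, where all 107 control members together held 18 and 2 UMIs. Among unmarked members Myoc was -0.45 and Cldn5 1.73, with intervals that include 0 (-2.10 to 1.60 and -0.94 to 7.12). Few counts lie behind these values, so none gives a firm direction. Of the 10 upper and 10 lower named genes, 2 and 3 stayed past the fold in Gad-type members, 7 and 9 in members under 3 Tcf7l2 UMIs, 9 and 10 in those at 3 or more, 8 and 10 in Ebf3-led members, and 9 and 8 in unmarked members. The cause of these changes was not tested. The share of members with a Y-linked UMI was 35.6% and 34.9% after thinning, and 90.3% in tomatidine with 2 or more UMIs. Depth limits the control side, where 107 cells hold 4129114 UMIs and a gene under 1 CPM has fewer than 5 counts.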
